A study of Mus musculus with 2 samples.

Results

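The neuregulins and the ErbB receptors are 8 genes (Nrg1, Nrg2, Nrg3, Nrg4, Egfr, Erbb2, Erbb3 and Erbb4), chosen by name from the 30223 gene rows of a single-cell table of the mouse hippocampus. All 8 were present. Their transcripts were described across cell classes, and the classes that hold a ligand were set beside those that hold its receptor. The wild-type library was a pool of hippocampal cells from 4 wild-type control mice, and the knock-in library a pool from 4 mice homozygous for the allele Pigv341E. Both hippocampi of each mouse were used, 8 per genotype, and all mice were of the strain C57Bl.6/J. The labels used here give neither age nor sex. Pigv encodes an enzyme that adds a mannose to the growing glycosylphosphatidylinositol anchor, which tethers many proteins to the cell surface, and none of the members is known to carry that anchor. Each genotype is a single library, so that genotype and library cannot be told apart, no difference between them has a replicate check, and no test was made.

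Neuregulins are ligands with a domain resembling epidermal growth factor (EGF) that protease cleavage can release from the membrane. ErbB4 binds all 4 neuregulins, ErbB3 binds neuregulins 1 and 2 but is a weak kinase that signals through partners, ErbB2 has no neuregulin of its own and acts as a partner, and the EGF receptor (Egfr) binds EGF and related ligands instead. In the hippocampus and cortex, ErbB4 is known for its place on GABAergic interneurons, where neuregulins shape excitatory input and inhibitory output. In the oligodendrocyte lineage, ErbB3 and ErbB4 are known from work on myelination.

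The sequences below show what unites the ligands and what unites the receptors. The EGF-like segment of a neuregulin is held together by 6 cysteines and is the part that meets the receptor. Coding bases of this segment are given 5′ to 3′ from GENCODE M21 transcripts (GRCm38), with the 6 cysteine codons in capitals.
Nrg1: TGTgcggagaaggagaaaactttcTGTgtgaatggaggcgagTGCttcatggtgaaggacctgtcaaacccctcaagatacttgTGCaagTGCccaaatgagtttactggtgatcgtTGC
Nrg3: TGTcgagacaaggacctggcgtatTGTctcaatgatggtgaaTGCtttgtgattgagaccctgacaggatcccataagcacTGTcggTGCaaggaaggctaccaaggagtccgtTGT
Nrg4: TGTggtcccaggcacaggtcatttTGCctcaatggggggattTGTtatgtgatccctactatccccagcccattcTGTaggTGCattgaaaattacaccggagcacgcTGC
The segment measured 120 bases in Nrg1, 117 in Nrg3 and 111 in Nrg4, and in each gene it was split over a pair of coding exons. In Nrg1 these were chr8:31849310-31849398 and chr8:31837698-31837728, in Nrg3 chr14:39011969-39012054 and chr14:38668261-38668291, and in Nrg4 chr9:55280890-55280969 and chr9:55242177-55242207, all on the minus strand. The receptors share a kinase domain, and the coding bases of its catalytic loop are given with the codon of the catalytic residue in capitals.
Egfr: caccgtGACttggcagccaggaat
Erbb2: cacaggGACctagctgcccgaaac
Erbb3: cataggGACcttgcgctccggaat
Erbb4: catcggGATctggcagcccgcaat
Each loop lay in exon 21 of its transcript, at chr11:16904338-16904361 (plus strand) for Egfr, chr11:98434247-98434270 (plus) for Erbb2, chr10:128572533-128572556 (minus) for Erbb3 and chr1:68080739-68080762 (minus) for Erbb4. Over these 24 bases, pairs of receptors were identical at 15 (Egfr and Erbb3) to 18 (Egfr and Erbb4). Nrg1 (ENSMUSG00000062991, chr8:31814551-32884029), Nrg3 (ENSMUSG00000041014, chr14:38368952-39473088) and Erbb4 (ENSMUSG00000062209, chr1:68032186-69108059) are very long genes of 1069, 1104 and 1076 kb. Erbb2 (ENSMUSG00000062312, chr11:98412470-98437716) and Erbb3 (ENSMUSG00000018166, chr10:128567523-128589652) span 25.2 and 22.1 kb, Egfr (ENSMUSG00000020122, chr11:16752203-16918158) 166 kb and Nrg4 (ENSMUSG00000032311, chr9:55220222-55326844) 107 kb. Genes on the opposite strand that also have rows in the table overlap Nrg1 (2 genes), Nrg3 (3), and Nrg2, Nrg4, Egfr and Erbb2 (1 each). The sources used here do not give whether counting used strand or intronic reads, and the values do not separate isoforms.

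There were 7094 wild-type and 8836 knock-in cells. The deposited values are whole numbers after a depth correction, with totals per cell of 4846 to 14501. The depth of sequencing is therefore unknown, and a value of 1 need not be a molecule. A level below is the part of a class's total value that a gene makes up, per 10000, and pairs of values give the wild-type library first. Clustering gave 36 clusters, of which 24 were named from marker genes, each name carrying "-like" since nothing but markers supports it. They formed 17 classes, 14 of them with at least 50 cells in each library. Cells in unnamed clusters were 11.3% of all wild-type and 15.7% of all knock-in cells, and 28 cell barcodes occurred in both libraries. An unnamed, haemoglobin-led cluster (136 wild-type, 85 knock-in) held the neuronal genes Meg3, Snap25 and Syt1 at a summed 90.9 and 75.2 per 10000. It also held Nrg3 at 59.3 and 41.9, Nrg1 at 6.59 and 6.55 and Erbb4 at 2.14 and 1.80 per 10000. Its levels are set beside low levels in other classes below.

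Nrg1, the ligand with the most forms, differed widely between classes of neurons. Its level was 35.2 (wild-type) and 32.8 per 10000 (knock-in) in Cajal-Retzius cell-like cells, the reelin-secreting neurons of the outer layers. Cortical excitatory neuron-like cells followed with 23.1 and 19.2. In CA1 pyramidal neuron-like cells the level was 8.31 and 8.00, and in dentate granule neuron-like cells 5.83 and 5.87. The lowest class was CA3 pyramidal neuron-like, with 0.551 in wild-type and 0.915 in knock-in cells. A value above 0 was found there in 13.1% of wild-type cells (exact Clopper-Pearson 95% interval 9.51 to 17.5%, counting error only) and 17.6% of knock-in cells, against 86.5% (84.0 to 88.7%) and 87.2% in CA1 pyramidal neuron-like cells. In cells thinned to equal totals of 1000, the shares were 3.70% and 5.95% in CA3 against 45.7% and 41.8% in CA1. The CA1 and CA3 pyramidal fields thus stood far apart in Nrg1, in each library. Set against the haemoglobin-led cluster, the Nrg1 level was 0.0836 and 0.140 times as high in CA3. It was below that cluster in both libraries in 9 of the 14 classes compared, among them dentate granule neuron-like (0.884 and 0.897 times), interneuron-like (0.632 and 0.573), astrocyte-like (0.558 and 0.499) and subiculum neuron-like cells (0.352 and 0.470). The summed neuronal genes were 0.390 and 0.474, 0.915 and 1.19, 0.114 and 0.155, and 0.897 and 1.15 times as high in these classes. Relative to that cluster, Nrg1 thus stood higher than the summed neuronal genes in dentate granule neuron-like and astrocyte-like cells and lower in the other 2. In the neuronal classes the summed genes are also the cells' own, so their ratio there is no measure of free transcripts. The part of free transcripts in the Nrg1 levels was not tested. Immature neuron-like cells (7.50 and 8.20) did not differ from oligodendrocyte precursor-like (7.67 and 7.95) or CA1 pyramidal neuron-like cells beyond the gap between the libraries. CA1 pyramidal neuron-like cells were slightly above the precursor-like cells in each library. Interneuron-like cells held 4.16 and 3.75, astrocyte-like cells 3.68 and 3.27, and subiculum neuron-like cells 2.32 and 3.08.

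**Figure D1:**
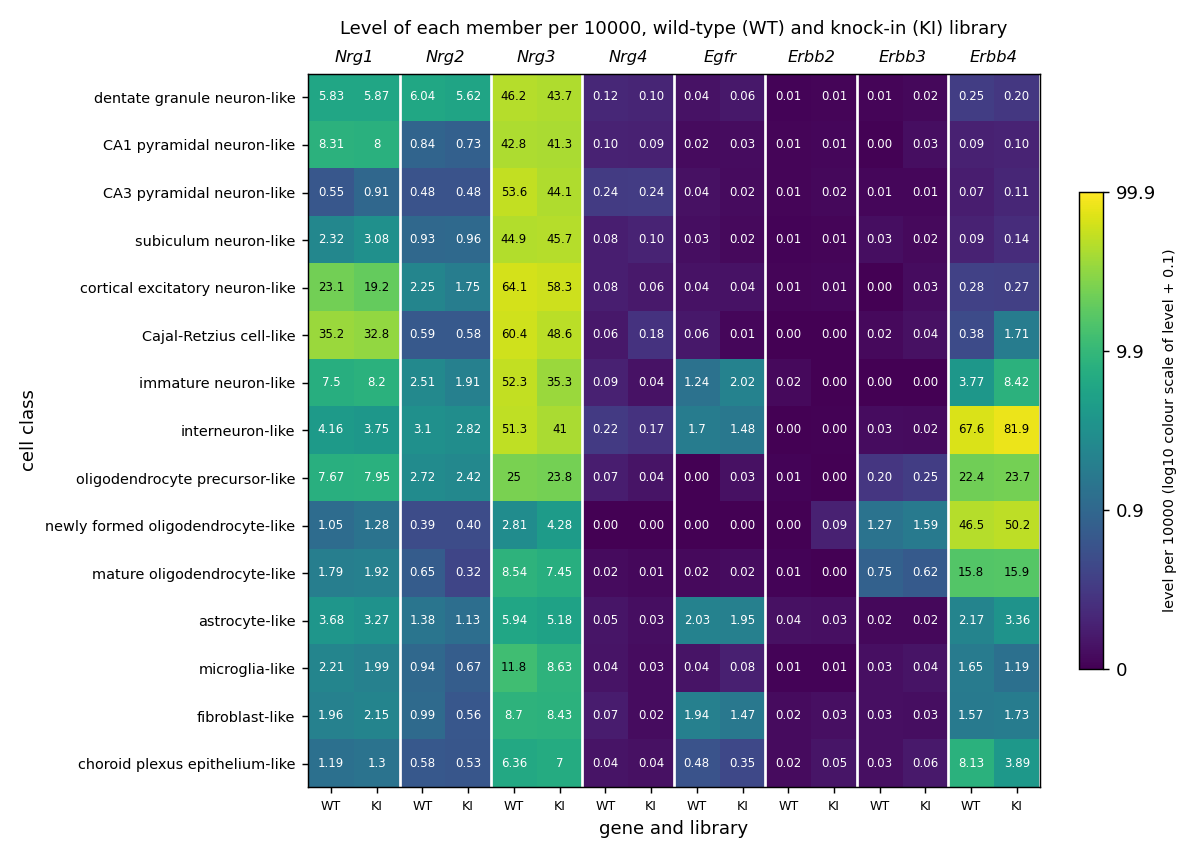
Level of each member per 10000 in 15 cell classes (rows) in the wild-type (WT) and knock-in (KI) library (columns); each cell of the grid prints its level and is coloured on a log10 scale of the level + 0.1. Nrg1 runs from 35.2 in wild-type Cajal-Retzius cell-like cells to 0.551 in wild-type CA3 pyramidal neuron-like cells, Nrg3 is high in every neuronal class, and Erbb4 is high in interneuron-like and oligodendrocyte classes.

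Nrg2, a close relative of Nrg1, was highest in the dentate gyrus. Its level there was 6.04 (wild-type) and 5.62 per 10000 (knock-in), above every other class compared in each library. Interneuron-like cells came next at 3.10 and 2.82, then oligodendrocyte precursor-like cells at 2.72 and 2.42. Cortical excitatory neuron-like cells held 2.25 and 1.75. The pyramidal classes were lower, with 0.837 and 0.730 in CA1 pyramidal neuron-like and 0.479 and 0.483 in CA3 pyramidal neuron-like cells. Values above 0 were found in 97.7% of wild-type and 98.9% of knock-in dentate granule neuron-like cells, and in 25.9% and 25.3% of CA3 pyramidal neuron-like cells. Thinned to a total of 1000, the shares were 44.5% and 41.6% in the dentate class and 3.37% and 5.06% in CA3. Nrg1 and Nrg2 thus differed in order: Nrg1 was higher in CA1 than in dentate granule neuron-like cells, and Nrg2 the reverse, in each library.

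Nrg3, a ligand made mainly by the nervous system, was present in all neurons rather than in some. Its level lay between 35.3 and 64.1 per 10000 in the 8 neuronal classes of both libraries, and at least 98.5% of the cells of each class had a value above 0. Cortical excitatory neuron-like cells were highest, at 64.1 and 58.3. CA3 pyramidal neuron-like cells, the lowest class for Nrg1, held Nrg3 at 53.6 and 44.1. Dentate granule neuron-like cells held 46.2 and 43.7, interneuron-like cells 51.3 and 41.02. In the order of mean levels, neighbouring neuronal classes overlapped over the libraries, so the order among most of them is not firm. The cortical class was the highest in each library, and its range overlapped that of the Cajal-Retzius cell-like class alone. In wild-type neuronal classes the level was 0.722 (CA1) to 1.08 (cortical) times that of the haemoglobin-led cluster. In the knock-in library it was 0.843 (immature) to 1.39 (cortical) times. High shares were not limited to neurons: 100% and 99.0% of oligodendrocyte precursor-like and 99.2% and 98.6% of mature oligodendrocyte-like cells were above 0. Outside neurons, oligodendrocyte precursor-like cells held 24.98 and 23.8. Microglia-like cells held 11.8 and 8.63, mature oligodendrocyte-like cells 8.54 and 7.45, and astrocyte-like cells 5.94 and 5.18. Set against the haemoglobin-led cluster of the same library, the Nrg3 level was 0.199 and 0.206 times as high in microglia-like cells, while the summed neuronal genes were 0.263 and 0.278 times as high. The same ratios in mature oligodendrocyte-like cells were 0.144 and 0.178 for Nrg3 and 0.182 and 0.238 for the neuronal genes. In oligodendrocyte precursor-like cells they were 0.421 and 0.568 for Nrg3 and 0.145 and 0.204 for the neuronal genes. Relative to that cluster, Nrg3 therefore stood higher than the summed neuronal genes in precursors and lower in microglia-like and mature oligodendrocyte-like cells. The part of free transcripts in these levels was not tested.

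Nrg4 was close to absent at this resolution. Its highest levels were 0.236 and 0.238 per 10000 in CA3 pyramidal neuron-like cells and 0.219 and 0.175 in interneuron-like cells. Values above 0 were found in 19.2% (14.9 to 24.1%) of wild-type and 20.5% of knock-in CA3 pyramidal neuron-like cells, but a value of 2 or more in 3.37% and 2.68%. The haemoglobin-led cluster held Nrg4 at 0.0963 and 0.0799, where 4.41% and 5.88% of cells were above 0, and the lowest class, mature oligodendrocyte-like, had 1.05% and 0.785% of cells above 0.

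Among the receptors, Erbb4 divided the neurons. Interneuron-like cells held 67.6 (wild-type) and 81.9 per 10000 (knock-in), with a median value per cell of 65 and 82 and a value above 0 in 95.5% (91.0 to 98.2%) and 95.7% of cells. CA1 pyramidal neuron-like cells held 0.0866 and 0.0972, CA3 pyramidal neuron-like cells 0.0719 and 0.112, and dentate granule neuron-like cells 0.248 and 0.203. These levels in excitatory neurons lay below the haemoglobin-led cluster, as did those of subiculum (0.0914 and 0.143) and cortical excitatory neuron-like cells (0.279 and 0.267). Oligodendrocyte precursor-like cells held Erbb4 at 22.4 and 23.7 and mature oligodendrocyte-like cells at 15.8 and 15.9, which are 10.4 and 13.2 times and 7.36 and 8.84 times the level of that cluster. Astrocyte-like cells held 2.17 and 3.36, microglia-like cells 1.65 and 1.19 and fibroblast-like cells 1.57 and 1.73 per 10000. Microglia-like and fibroblast-like cells were thus below the haemoglobin-led cluster in each library (0.771 and 0.662 times its level in microglia-like, 0.733 and 0.964 times in fibroblast-like cells).

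Erbb3 followed the oligodendrocyte lineage. Mature oligodendrocyte-like cells held 0.752 (wild-type) and 0.616 per 10000 (knock-in), with a value above 0 in 30.2% (27.8 to 32.6%) and 28.4% of cells. Oligodendrocyte precursor-like cells held 0.201 and 0.249. No other class compared passed the level of choroid plexus epithelium-like cells in the knock-in library, 0.06002 (0.0327 in the wild-type library). The smallest class, newly formed oligodendrocyte-like, had 34 wild-type and 25 knock-in cells, too few for the comparison of libraries, and held 1.27 and 1.59. Erbb2, the shared partner, was above 0 in 154 of 15930 cells and at 2 or more in 11. No class compared reached 0.05 per 10000. Astrocyte-like cells had a value above 0 in 17 wild-type (2.80%) and 21 knock-in cells (2.56%), against 4 (0.281%) and 1 (0.0713%) mature oligodendrocyte-like cells. They contained 28.8% and 22.2% of all Erbb2 with 8.56% and 9.27% of the cells, so that Erbb2 was uneven over classes in each library, on few cells. Choroid plexus epithelium-like cells, at 0.0218 and 0.0480, could not be told apart in level from astrocyte-like cells, at 0.0379 and 0.0321.

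Egfr was highest in another class than Erbb4 and Erbb3, although the classes with most Egfr, each taken as a whole, also held Erbb4. Astrocyte-like cells held 2.03 and 1.95 per 10000, with a value above 0 in 58.2% (54.1 to 62.1%) and 59.5% of cells. Fibroblast-like cells held 1.94 and 1.47, interneuron-like cells 1.70 and 1.48, and immature neuron-like cells 1.24 and 2.02. The dentate, CA1, CA3, subicular and cortical excitatory classes stayed below 0.06, and 2.25% and 2.56% of CA1 pyramidal neuron-like cells had a value above 0. Oligodendrocyte precursor-like cells, where Erbb4 was second highest of the classes compared, held Egfr at 0 and 0.0350. In the immature neuron-like class Egfr came from a minority: 7 wild-type and 12 knock-in cells had a value of 2 or more. These 19 cells, singled out after their values were seen, held the glial glutamate transporter gene Slc1a3 at 8.71 per 10000 against 1.75 in the other 142, the division gene Top2a at 3.78 against 0.646, and Nrg3 at 8.90 against 46.8. They also held less Igfbpl1 (1.54 against 5.73) and Dcx (0.833 against 1.98), markers used to name the class. Cells of this class with an Egfr value of 2 or more were therefore low in Nrg3 and in these markers. They held Erbb4 at 1.15 per 10000 against 7.19 in the other 142. Of the 17 cells of this class with an Erbb4 value of 10 or more, 0 had Egfr above 0. In fibroblast-like cells, where Erbb4 was below the haemoglobin-led cluster, the 3 highest cells contained 65.5% and 45.9% of all Erbb4.

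To match ligands with receptors, a class was taken to hold a member when its level reached 0.5 per 10000 and at least 10% of its cells were above 0 in both libraries. By this rule, Nrg1 and Nrg3 were held by all 14 classes compared, Nrg2 by 12, Nrg4 and Erbb2 by 0, Erbb4 by 8, Egfr by 4 and Erbb3 by 1. All 8 classes with Erbb4 also held Nrg1 and Nrg3, and 7 of them Nrg2. Because all 14 classes held Nrg1 and Nrg3, the match of these ligands with Erbb4 could not have come out otherwise. The 6 classes with Nrg1 and Nrg3 but without Erbb4 were the dentate granule, CA1, CA3, subiculum and cortical excitatory neuron-like classes and the Cajal-Retzius cell-like class. Erbb3 was held in mature oligodendrocyte-like cells alone, which held Nrg1 as every class did. The rule counts low levels as held, among them the microglia-like and fibroblast-like Erbb4 levels and the CA3 Nrg1 level, all below the haemoglobin-led cluster. Nrg1 was below that cluster in further classes, as given above. Nrg2 was below it in CA1 pyramidal, subiculum, Cajal-Retzius, astrocyte, microglia, fibroblast and choroid plexus epithelium-like cells. Nrg3 was below that cluster in each library in astrocyte, microglia, fibroblast, choroid plexus epithelium, oligodendrocyte precursor and mature oligodendrocyte-like cells. Among neurons, the same held for interneuron, CA1 pyramidal and immature neuron-like cells. In these non-neuronal classes other than precursors, Nrg3 also stood lower, relative to that cluster, than the summed neuronal genes. Without the 3 highest cells, Nrg1 in wild-type CA3 pyramidal neuron-like cells was at 0.342, under the limit. At a limit of 1 per 10000, Nrg1 was held by 13 classes, Nrg2 by 6 and Erbb3 by 0.

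The share of a member's summed value that each set of classes holds is another measure, which also depends on how many cells of each class were captured. The 5 excitatory neuron-like classes and the Cajal-Retzius cell-like class held 40.3% of wild-type and 36.9% of knock-in cells. They contained 65.4% and 61.1% of all Nrg3, 66.4% and 60.7% of all Nrg2 and 50.4% and 39.0% of all Nrg1, but 1.25% and 1.17% of all Erbb4. For Nrg1 in the knock-in library this was close to their share of the cells. Unnamed clusters contained 29.3% and 44.2% of all Nrg1. The oligodendrocyte classes, 23.5% and 19.6% of the cells, contained 59.5% and 45.8% of all Erbb4 and 87.3% and 76.2% of all Erbb3. Interneuron-like cells, 2.21% and 2.89% of the cells, contained 26.7% and 38.2% of all Erbb4. Astrocyte-like cells contained 52.9% and 47.0% of all Egfr. By sum, more Erbb4 transcript thus lay in oligodendrocyte classes than in interneurons in each library, although the level per cell was higher in interneurons.

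**Figure D2:**
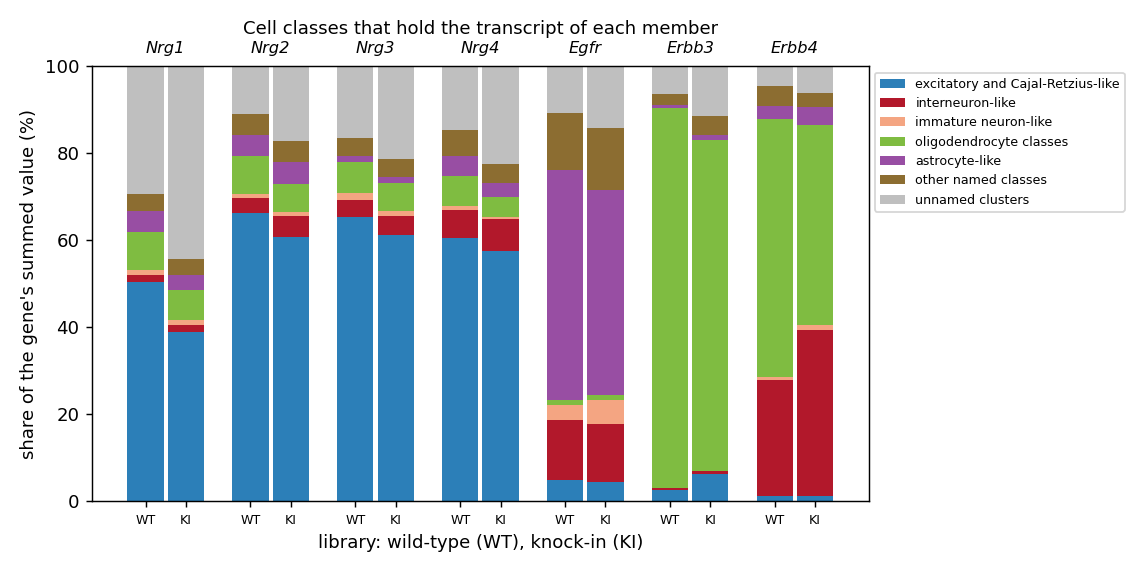
Share of the summed value of 7 members (in %, y axis) that lies in each set of cell classes, with 1 bar for the wild-type (WT) and 1 for the knock-in (KI) library; Erbb2 is left out because 154 cells had any value. The blue excitatory and Cajal-Retzius-like part takes over 39% of each bar of Nrg1 to Nrg4 and under 7% of each bar of the receptors, and the grey unnamed part of Nrg1 is 29.3% in wild-type and 44.2% in knock-in cells.

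Receptors were also counted together in single cells. Erbb3 and Erbb4 were both above 0 in 413 wild-type (29.0%) and 373 knock-in (26.6%) mature oligodendrocyte-like cells, and in 29 (13.8%) and 48 (15.9%) oligodendrocyte precursor-like cells. Erbb4 was above 0 in 96.9% and 95.8% of the mature and 100% and 99.7% of the precursor-like cells. The joint shares there are thus nearly set by the share of Erbb3. Egfr and Erbb4 were both above 0 in 56 wild-type (35.7%) and 84 knock-in (32.9%) interneuron-like cells, and in 145 (23.9%) and 244 (29.8%) astrocyte-like cells. Counted singly, Erbb4 was above 0 in 95.5% and 95.7% of interneuron-like and 43.2% and 46.9% of astrocyte-like cells. Egfr was above 0 in 36.3% and 32.9%, and in 58.2% and 59.5%. The joint counts are therefore no measure of receptors going together beyond their own shares. Erbb2 and Erbb3 were both above 0 in 1 wild-type and 0 knock-in oligodendrocyte precursor-like cells, in 0 and 1 newly formed and in 0 and 0 mature oligodendrocyte-like cells, at the low level of Erbb2 given above. The same was found in 1 wild-type and 1 knock-in CA1 pyramidal neuron-like cell, so it was not limited to the oligodendrocyte classes.

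Over the oligodendrocyte classes, the receptors Erbb4 and Erbb3 were highest where the ligands Nrg1 and Nrg3 were lowest. Erbb4 was at 22.4 and 23.7 per 10000 in precursor-like, 46.5 and 50.2 in newly formed and 15.8 and 15.9 in mature oligodendrocyte-like cells. Erbb3 was likewise highest in the newly formed class, at 1.27 and 1.59. Nrg3 was at 24.98 and 23.8 in precursor-like cells, 2.81 and 4.28 in newly formed and 8.54 and 7.45 in mature cells. Nrg1 was at 7.67 and 7.95, then 1.05 and 1.28, then 1.79 and 1.92. Nrg2 was at 2.72 and 2.42, then 0.392 and 0.397, then 0.647 and 0.321, so that its lowest class differed between the libraries. The newly formed class was thus highest for these receptors and lowest for Nrg1 and Nrg3 in each library, while from precursor-like to mature cells Erbb4, Nrg1, Nrg2 and Nrg3 were all lower. It also held the fewest neuronal transcripts, 0.0636 and 0.0905 times those of the haemoglobin-led cluster, against 0.182 and 0.238 times in the mature class. The part of free neuronal transcripts in the Nrg1 and Nrg3 levels of these classes was not tested. The mature class joined 2 clusters, which held Erbb4 at 17.7 and 18.2 (986 wild-type and 994 knock-in cells) and at 11.6 and 10.3 (440 and 408 cells).

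**Figure D3:**
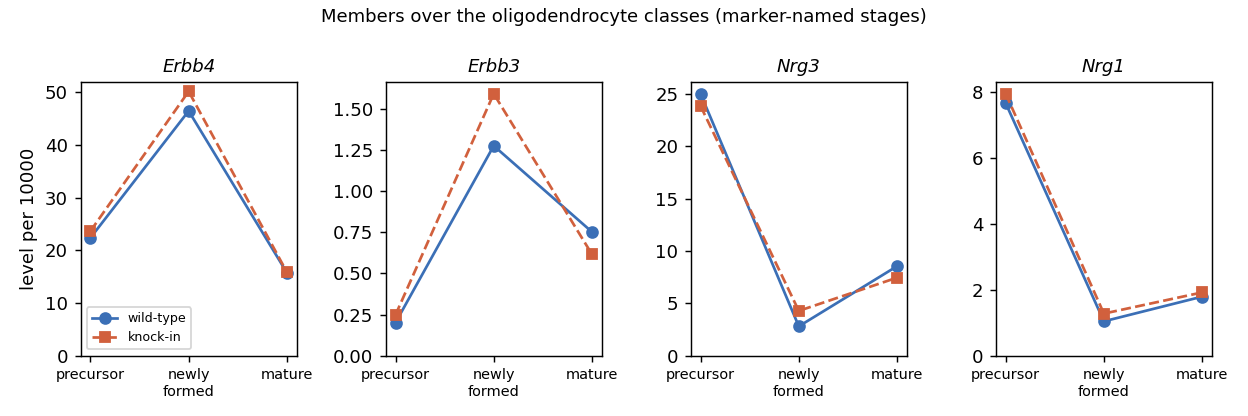
Level per 10000 (y axis, from 0, a separate scale per gene) of Erbb4, Erbb3, Nrg3 and Nrg1 in the precursor-like, newly formed and mature oligodendrocyte-like classes, with circles for the wild-type and squares for the knock-in library; lines join the classes only to guide the eye. Erbb4 and Erbb3 peak in the newly formed class (46.5 and 50.2, and 1.27 and 1.59), where Nrg3 and Nrg1 are lowest.

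Interneuron-like cells did not hold Erbb4 evenly. The 412 cells were divided again, with the members left out of the clustering, into 13 sub-clusters, of which 7 had at least 15 cells in each library. Of these, Erbb4 was highest, at 136.7 and 136.8 per 10000, in the sub-cluster led by Vcan and Hapln1 with Nos1 (17 and 31 cells). The sub-cluster of the fast-spiking marker Pvalb held 116.6 and 113.4 (15 and 30 cells). Sub-clusters led by Kit with Ndnf and Reln held 95.8 and 119.2, and by Vip 86.4 and 118.2. The sub-cluster led by Sst, which encodes somatostatin, held 9.03 and 24.8 (23 and 34 cells), and the one led by Zfpm2 and Olfm3 held 8.56 and 22.4 (19 and 31 cells). Every cell of the Vcan, Pvalb, Kit and Vip sub-clusters had an Erbb4 value of 10 or more. In the Sst-led sub-cluster, 8.70% of wild-type and 44.1% of knock-in cells did, and in the Zfpm2-led one 31.6% and 51.6%. The remaining one, led by Ntng1 and Cadps2, lay between at 33.3 and 48.3 (17 and 22 cells). The Sst-led and Zfpm2-led sub-clusters were thus below the other 5 in each library, with no overlap.

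Egfr split the same cells along another line. The Kit-led sub-cluster held 5.69 and 5.74 per 10000, the Vip-led one 4.35 and 2.82, and the Vcan-led one 2.07 and 2.19. The Pvalb sub-cluster, high in Erbb4, held Egfr at 0.523 and 0.0326, and the Sst-led one at 0 and 0.0287. Nrg2 was highest in the Vcan-led sub-cluster, at 7.20 and 6.21, against 1.47 to 3.34 in the other 6. Nrg3 reached 177.3 and 125.2 in a small sub-cluster led by Gm39185, Thsd7b and Htr2c (12 wild-type and 6 knock-in cells), more than in any other interneuron-like sub-cluster. These sub-clusters were picked out after their values were seen, and each rests on few cells.

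**Figure D4:**
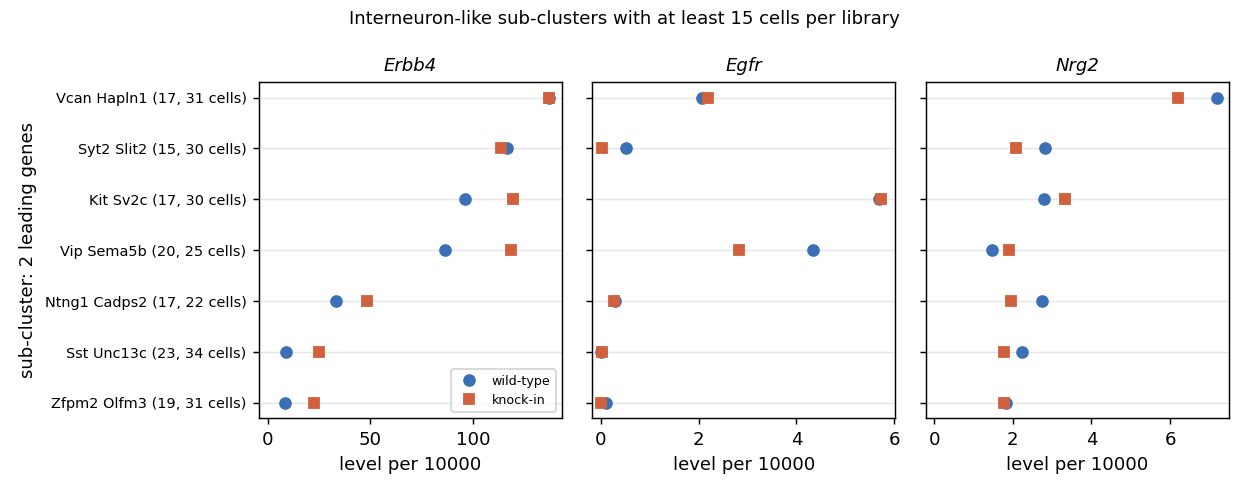
Level per 10000 (x axis) of Erbb4, Egfr and Nrg2 in the 7 interneuron-like sub-clusters with at least 15 cells per library, named by 2 leading genes with their wild-type and knock-in cell numbers; circles are the wild-type and squares the knock-in library. Erbb4 is 22.4 to 24.8 in the knock-in library and 8.56 to 9.03 in the wild-type library in the bottom 2 rows, and Egfr is high in the Kit-led and Vip-led rows; the Pvalb sub-cluster is the row named Syt2 Slit2.

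The libraries were then compared. A gene was past the size rule when the log2 ratio of its levels (knock-in to wild-type, 0.1 added to each) was at least 1 in size and, in a library, its level reached 1 per 10000 with 10% or more of cells above 0. Over all cells, 4 members met the limits of level and share, and 0 of them were past the rule, where 0.289% of all genes were. Nrg1 was at 6.13 (wild-type) and 7.67 per 10000 (knock-in; log2 ratio 0.32), Nrg2 at 2.24 and 1.89 (-0.24), Nrg3 at 31.5 and 28.9 (-0.12) and Erbb4 at 6.20 and 6.84 (0.14). The median log2 ratio of all genes was -0.08, so that the members are read against a small shift. The Nrg1 difference lay mainly outside the named classes. An unnamed cluster led by Unc5d, Efna5 and Dpp10 had 126 wild-type and 470 knock-in cells and held Nrg1 at 22.2 and 31.1. Without this cluster, a setting chosen after seeing the data, Nrg1 was at 5.81 and 6.21 (log2 ratio 0.09), and over the named cells alone at 4.91 and 5.13 (0.06).

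By class, 46 of 112 pairs of a member and a class met the limits, and 3 were past the size rule, against 1.06% of all pairs of a gene and a class that met them. All 3 were Erbb4. In Cajal-Retzius cell-like cells it was higher in the knock-in library (0.380 and 1.71, log2 ratio 1.91), in a class where 1.87% of all genes were past the rule. In immature neuron-like cells it was higher too (3.77 and 8.42, 1.14), where 1.22% were. In choroid plexus epithelium-like cells it was lower (8.13 and 3.89, -1.05), where 3.55% were. Each of these differences was carried by part of the class.

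The Cajal-Retzius difference rested on 2 cells. Among 100 knock-in cells, 2 had an Erbb4 value of 10 or more, the higher at 93, and the 3 highest cells contained 81.5% of the sum. Among 62 wild-type cells the highest value was 3. A value above 0 was found in 13 of the 62 (21.0%, 11.7 to 33.2%) and in 22 of the 100 cells. Without the 3 highest cells of each library, a setting chosen after seeing the data, the levels were 0.259 and 0.327 (log2 ratio 0.25). Of the 2 high cells, 1 had a value above 0 for Gad2, a gene of inhibitory neurons, and the same number for the interneuron gene Dlx6os1.

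In the immature neuron-like class, Erbb4 lay in a small group with inhibitory genes. The cells were divided by their own Erbb4 value, at a limit chosen after the values were seen. An Erbb4 value of 10 or more was found in 5 of 67 wild-type and 12 of 94 knock-in cells, and the highest value was 66 and 119. All 17 of these cells had Gad2 or Dlx6os1 above 0, whereas 12 of the other 144 did. They held Dlx6os1 at 10.7 per 10000 against 0.376, Gad2 at 4.34 against 0.301, and the transcription factor gene Meis2 at 38.7 against 2.26. They held less of the granule neuron gene Prox1, at 0.588 against 3.81, and less Nrg3, at 11.6 against 45.9. Dcx and Igfbpl1, genes of young neurons, were present in each group (3.01 and 3.75 against 1.71 and 5.41). The high group made up 7.46% of wild-type and 12.8% of knock-in cells. The other 144 cells held Erbb4 at 0.660 and 0.719, levels that the division itself keeps low. Nrg3 in the same class was at 52.3 and 35.3 (log2 ratio -0.56), and among cells with an Erbb4 value under 10 at 55.9 and 38.3.

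The choroid plexus epithelium-like class joined 2 clusters with different Erbb4 levels. The cluster led by Htr2c (40 wild-type and 21 knock-in cells) held 17.7 and 13.2 per 10000, and the one led by Ttr (61 and 67 cells) held 1.08 and 0.890. With equal cluster weights in both libraries, the log2 ratio was -0.47 and no longer past the rule. The same Htr2c-led cluster held Egfr at 1.13 in each library, while the Ttr-led cluster held 0 and 0.0953.

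**Figure D5:**
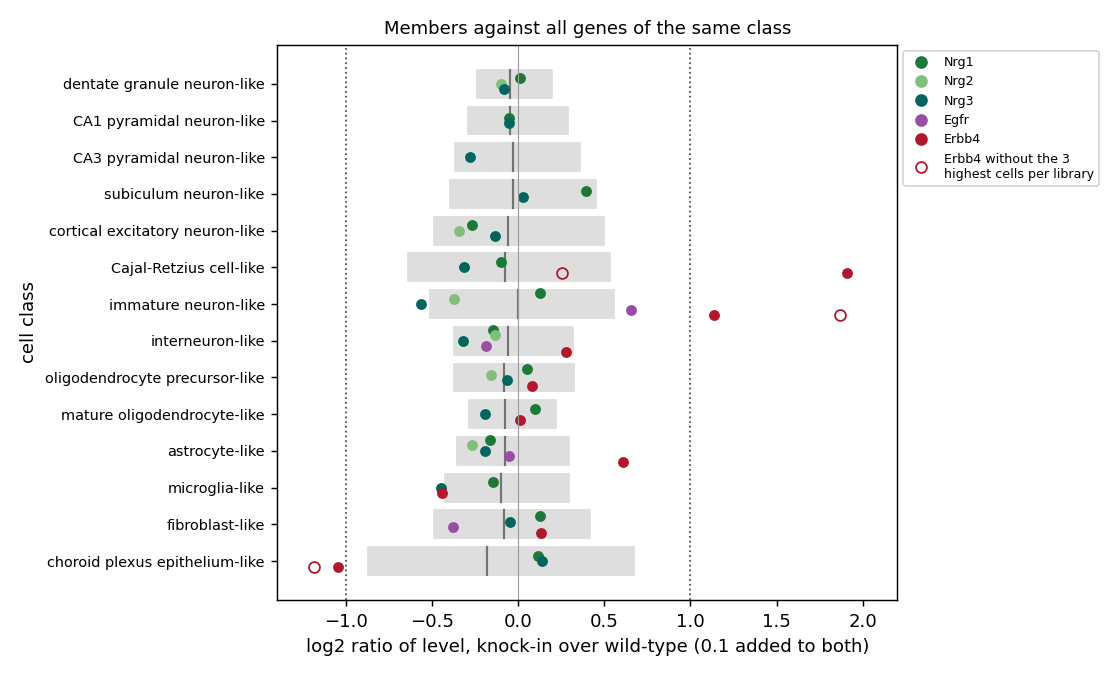
Log2 ratio of level, knock-in over wild-type, of each member that met the limits (points) in 14 cell classes (rows); grey bars span the 5th to the 95th percentile of all genes that met the limits in that class, dark ticks mark their median, dotted lines mark the size rule, and open circles give Erbb4 without the 3 highest cells of each library in the 3 classes where it was past the rule. Points outside the dotted lines are Erbb4 in Cajal-Retzius cell-like (1.91), immature neuron-like (1.14) and choroid plexus epithelium-like cells (-1.05), and leaving out the 3 highest cells moves the first to 0.25.

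In the other 11 classes 0 members were past the rule. The share of all genes past it was 0.536% in interneuron-like, 0.302% in dentate granule, 0.797% in CA1, 1.16% in CA3, 1.26% in subiculum and 1.53% in cortical excitatory neuron-like cells. It was 0.594% in astrocyte-like, 0.371% in microglia-like, 0.399% in oligodendrocyte precursor-like, 0.461% in mature oligodendrocyte-like and 0.677% in fibroblast-like cells. Within interneuron-like cells, the Erbb4 levels given above differed between the libraries most in ratio in the Sst-led (9.03 and 24.8) and Zfpm2-led sub-clusters (8.56 and 22.4) of the 7, and were close in the Vcan-led one (136.7 and 136.8). Erbb4 in the whole class had a log2 ratio of 0.28, in oligodendrocyte precursor-like cells 0.08 and in mature oligodendrocyte-like cells 0.01, with all-gene medians of -0.06, -0.08 and -0.08. In astrocyte-like cells Erbb4 stood at 2.17 and 3.36 (0.61), with 3.62% of wild-type and 8.06% of knock-in cells at 10 or more. This difference was present in each of the 2 astrocyte-like clusters, with log2 ratios of 0.61 and 0.62. In microglia-like cells Erbb4 stood at 1.65 and 1.19 (-0.44) and Nrg3 at 11.8 and 8.63 (-0.45), both below the 5th percentile of all genes there (-0.42). The class joined 3 clusters whose cell numbers shifted between the libraries, and they did not share these differences. Nrg3 was at 26.0 and 18.8 in the cluster led by Cst3 (176 and 116 cells), 12.7 and 12.4 in the one led by Inpp5d (240 and 344) and 3.32 and 3.66 in the one led by P2ry12 (257 and 400). Erbb4 was lower in the knock-in library in the Inpp5d-led cluster (2.63 and 1.58, log2 ratio -0.70), with log2 ratios of 0.06 and 0.05 in the other 2. The haemoglobin-led cluster, set beside them above, was lower in the knock-in library for Nrg3 as well (59.3 and 41.9). Nrg2 in mature oligodendrocyte-like cells fell short of the minimum level, at 0.647 and 0.321 per 10000. Its share of cells above 0 was 37.2% (34.7 to 39.7%) and 17.3%, but that at 2 or more was 8.63% and 6.78%, so that most of the difference in share lay in values of 1.

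Other genes of the pathway were taken from 4 lists. Of 7 other ErbB ligands, 0 met the limits over all cells. The highest, Tgfa, a ligand of the EGF receptor, was at 0.415 and 0.372 per 10000 over all cells and at 2.14 and 1.66 in oligodendrocyte precursor-like cells, a class in which Egfr was at 0 and 0.0350. Of 8 proteases that cut neuregulins or ErbB4, 1 met the limits, Adam10, at 1.38 and 1.24 (log2 ratio -0.15). Of 15 adaptor and PI3-kinase genes in the table, 6 met them with a median log2 ratio of -0.12. Pik3r1, a regulatory subunit, was the highest of these at 1.72 and 1.82 over all cells and at 3.63 and 4.203 in mature oligodendrocyte-like cells. Of 10 inhibitors in the table, 2 met the limits with a median of -0.18, and the ubiquitin ligase gene Cblb was the highest at 1.45 and 1.24. None of these genes was past the size rule over all cells, where 0.289% of all genes were. By class, 60 pairs of a gene and a class met the limits among the adaptors, 21 among the inhibitors, 18 among the proteases and 1 among the other ligands. Of all these pairs 1 was past the rule, near the 1.06% of all genes: Sos1, an exchange factor for Ras. It was lower in knock-in choroid plexus epithelium-like cells (1.02 and 0.372, log2 ratio -1.25), the class of the 2 clusters described above, where 3.55% of all genes were past the rule.

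The genes most like each member were found by the correlation of log2 levels over the 14 classes, which share their libraries and their dissociation, and are given as a description. For Nrg1 these were Mtcl1, Castor2 and Zmiz1os1 (Pearson r 0.80, 0.79 and 0.78), for Nrg2 Shisa9, Adcyap1r1 and Tiam1 (0.91, 0.89 and 0.84), and for Nrg3 Pdzd4, Srrm3 and Syn1 (0.98, 0.98 and 0.97). Egfr was most like Nfyc, Pdzrn3 and Epb41l5 (0.84, 0.83 and 0.81). Erbb3 was most like Fa2h, which encodes an enzyme of myelin lipid synthesis, Gm10863 and Ninj2 (0.98, 0.97 and 0.97). The nearest genes to Erbb4 were Cux2, Sox2ot and Npas3 (0.95, 0.91 and 0.86). Nrg4 and Erbb2 were too low in every class for this comparison.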

How the data were processed

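Cells of 1 wild-type and 1 knock-in library (Chromium v3, per the labels) were analysed from a single deposited table of 30223 genes by 15930 cells. The authors deposited whole-number values after a depth correction, used here as a score and not as counts. Seurat 3.0.0 and GRCm38 are named in the submitters' processing notes. The aligner, the filters on cells and any removal of doublets are not given in the sources used here. No test was run, because each genotype has 1 library. The members and lists were chosen with earlier results of these data known.

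Cells were scaled to 10000, log-transformed and clustered with scanpy 1.11.5 (2000 variable genes without the members, the pathway lists and sex-linked genes, 30 principal components, 15 neighbours, Leiden resolution 1). To name clusters, a marker was scored where 25% or more of the cells were above 0 and the level was 1.5 times that of the remaining cells. The class with most scored markers gave the name, given at least 3 and at least 50% of its list, or 80% where none was among the 10 leading genes. Clusters stayed unnamed where another class was as complete or led, or where mitochondrially encoded genes led. These naming limits were chosen with the clusters in view. Doublets were kept; Scrublet called 124 wild-type and 241 knock-in cells, left out in an alternative. The named genes were all members, the highest gene of each pathway list with every gene past the size rule, and the 3 genes most like each member. The level, log2 ratio (0.1 added) and size rule were tested on simulated data. Sequences and positions came from GENCODE M21, with codons located by translating an annotated coding transcript.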

Additional observations from a re-analysis of the deposited data

Results flagged for a closer look

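In 3 unnamed clusters, which enter no class above, a member stood higher in each library than in any class compared. Nrg1 was at 52.2 (wild-type) and 54.4 per 10000 (knock-in) in a cluster of 20 and 44 cells led by 9330185C12Rik, AC060761.1 and Zfp804b, where the highest class value was 35.2. Nrg3 was at 80.6 and 67.9 in a cluster of 86 and 106 cells led by Vwc2l, Cntn6 and Tshz2, where the highest class value was 64.1. Egfr was at 6.37 and 4.09 in a cluster of 24 and 87 cells led by Slc47a1, Bnc2 and Adamtsl3, where the highest class value was 2.03.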

How the results depend on the processing

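The 3 member and class pairs past the size rule became 5 with a limit of 0.58 on the log2 scale, which added Egfr in immature neuron-like cells (0.66) and Erbb4 in astrocyte-like cells (0.61). The share of all genes past this lower limit is not given here, so the added pairs cannot be read against a background. Under the other 11 planned settings the count was 2 or 3. The choroid plexus pair was lost with a pseudocount of 0.5, with means over cells and with equal cluster weights, and immature neurons were not named with 15 principal components. There the cortical excitatory class was also missing from the comparison, so that Nrg3 was highest in Cajal-Retzius cell-like cells (55.5 per 10000), and the mean level of both libraries in interneuron-like cells moved from 74.8 to 46.5 for Erbb4 and from 3.96 to 10.3 for Nrg1. Without the 3 highest cells of each library, chosen after seeing the data, the count was 2, and Erbb4 in immature neuron-like cells rose to a log2 ratio of 1.87. With values of 1 set to 0, Erbb3 was held by 0 classes and Nrg1 by 13. At a Leiden resolution of 2, Nrg1 was lowest in choroid plexus epithelium-like and not in CA3 pyramidal neuron-like cells. No paired analysis was possible because each genotype has 1 library. Depth is unknown, and Erbb2 and Nrg4 were held by 0 classes in every setting run.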
